A study of Homo sapiens with 7 samples.

Results

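Imprinted genes were described by when their DNA was copied in K562 and in U2OS. The rule took the array probes that carry the name of IGF2, H19, GRB10, DLK1, MEG3, GNAS, MAGEL2, SNRPN, UBE3A or PEG3, and the 250-kb windows that hold those probes. Of these 10 genes, 8 had a probe of their own name. H19 and PEG3 had none and were left out. The 8 genes had 56 probes on each of the 6 arrays of the larger design, of which 21 were also on the array labelled 44k. They lay in 9 windows of the 8913 that had at least 3 probes on every array, on 5 chromosomes. The rule uses no measured value.

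The study set nascent DNA of early S phase (labelled Cy3) against nascent DNA of late S phase (Cy5) on 7 two-colour arrays. Cells were given 50 µM BrdU for 2 h and sorted by DNA content, 80000 cells in 2 fractions, and the labelled DNA was recovered with an antibody to BrdU and amplified over the whole genome. K562 is a cell line from chronic myeloid leukaemia. It was used on 3 arrays, each a condition with n = 1: 180k with a new cell sorting method, 180k with the old cell sorting method, and 44k, whose sorting method the labels do not give. U2OS is an osteosarcoma cell line and was used on 4 arrays, 2 manual and 2 automated, and the labels do not say which step that names. Both lines were grown under ATCC conditions and received the same BrdU pulse, and no other agent is given. The labels do not say that arrays of a line came from separate cultures, so p-values measure only the spread between these arrays, which may be technical. Every array had the same dye orientation.

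Genomic imprinting is the expression of a gene from only 1 parental copy, set by DNA methylation laid down in the germ line at imprinting control regions. Imprinted genes lie in clusters, and some of them are long known for parental copies that replicate at different times in S phase. The DNA of the whole cell population was read here without regard to parent, so an intermediate value cannot be told apart from a pair of copies of which 1 is early and 1 late, or from cells that differ among themselves.

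Every value is log2 of the early over the late signal, centred on the median probe of its array, and positive means early. The depth of an array measurement is limited by the number of probes and by dim signal. Over the 6 larger-design arrays, 0.54 to 14.1% of the spots in the member windows had a late signal that the scanner software had replaced by a background-based value. On the array labelled 44k this share was 50.0%, which puts a limit on how early that array can read. The early signal was replaced in 10.3% of these spots on the old sorting array, which limits how late that array can read. For the early signal this share was 0 to 2.16% on the others. The early control locus BMP1 read 0.75 to 1.27 on the other 6 arrays but -0.36 on the array labelled 44k. DPPA2, the late control, read between -2.95 and -1.18 on all 7. Tests of the member windows that use K562 are therefore also given without the array labelled 44k.

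The printed probes show what stretches of the imprinted genes the values were read from. For each gene it is the probe nearest to the middle of its probes, in hg19 coordinates and with the gene name that the deposited files give. The files name no exon, intron or UTR for them. Capitals mark CpG, the dinucleotide that carries DNA methylation, which these arrays did not measure. Of the 56 member probes 15 hold a CpG, and their GC content runs from 31.7 to 42.1%.
IGF2 chr11:2164964-2165023: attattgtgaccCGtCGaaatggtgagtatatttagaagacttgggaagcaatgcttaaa
GRB10 chr7:50757602-50757661: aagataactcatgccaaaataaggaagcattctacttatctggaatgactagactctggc
DLK1 chr14:101199510-101199569: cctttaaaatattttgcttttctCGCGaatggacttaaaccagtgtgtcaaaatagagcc
MEG3 chr14:101309208-101309265: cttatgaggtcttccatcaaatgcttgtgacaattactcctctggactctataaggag
GNAS chr20:57454411-57454470: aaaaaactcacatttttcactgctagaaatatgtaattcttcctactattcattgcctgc
MAGEL2 chr15:23889686-23889744: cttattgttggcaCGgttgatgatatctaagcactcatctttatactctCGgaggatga
SNRPN chr15:25143144-25143203: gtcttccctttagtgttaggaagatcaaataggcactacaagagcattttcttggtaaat
UBE3A chr15:25626923-25626982: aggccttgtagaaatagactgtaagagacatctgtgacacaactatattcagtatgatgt

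The 9 windows fell into an early to intermediate set and a late set that both cell lines shared. GNAS, DLK1, IGF2, MEG3 and both GRB10 windows had means of -0.03 or above in U2OS and of 0.18 or above in K562. MAGEL2, SNRPN and UBE3A, all on chromosome 15, had late means in both lines, of -1.22 or below in U2OS and of -1.61 or below in K562. In U2OS the order from early to late was GNAS, DLK1, IGF2, GRB10 window 2, MEG3, GRB10 window 1, MAGEL2, UBE3A and SNRPN. Neighbours in that order overlapped in their arrays except GRB10 window 1 and MAGEL2. In K562 the order was GNAS, DLK1, GRB10 window 1, MEG3, GRB10 window 2, IGF2, MAGEL2, SNRPN and UBE3A. There the neighbours that did not overlap were GRB10 window 2 and IGF2, and IGF2 and MAGEL2.

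**Figure D1:**
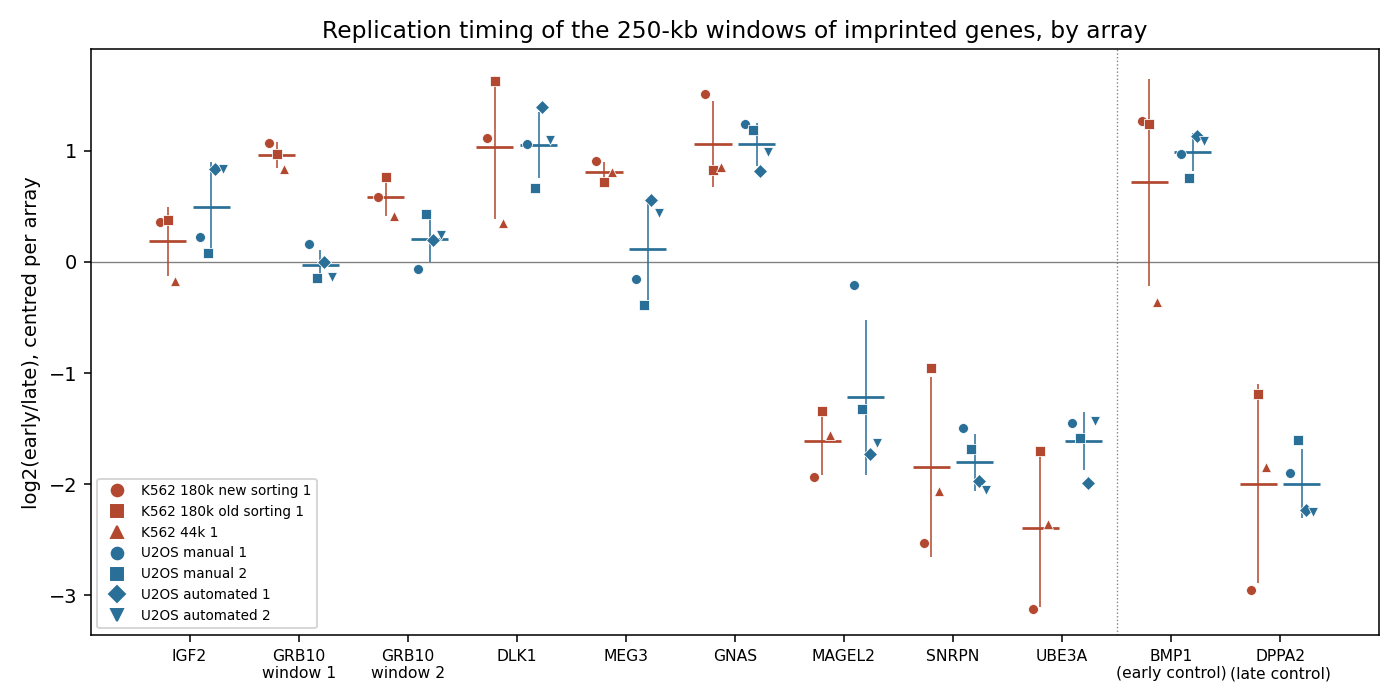
Mean log2(early/late) of the probes in each member window (y axis) for every array (points), with the line mean (bar) and SD (vertical line), K562 in red and U2OS in blue; the control loci BMP1 and DPPA2 stand at the right. MAGEL2, SNRPN and UBE3A sit below 0 on all 7 arrays, and the K562 points of GRB10 window 1 lie between 0.84 and 1.07, above all U2OS points.

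A window was called intermediate on an array when it ranked between the 33.3 and 66.7 percentiles of all 8913 windows there, and intermediate in a line when this held on every array of the line. In U2OS 4 of the 9 member windows were intermediate, against 19.5% of all windows. They were IGF2, both GRB10 windows and MEG3. In K562 2 of 9 were intermediate, IGF2 and GRB10 window 2, against 16.8% of all windows. These same 2 were intermediate on all 7 arrays, which held for 4.97% of all windows. Without the array labelled 44k, MEG3 joined them and the K562 count was 3. The ranks are a description, and neighbouring windows are not independent of each other.

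**Figure D2:**
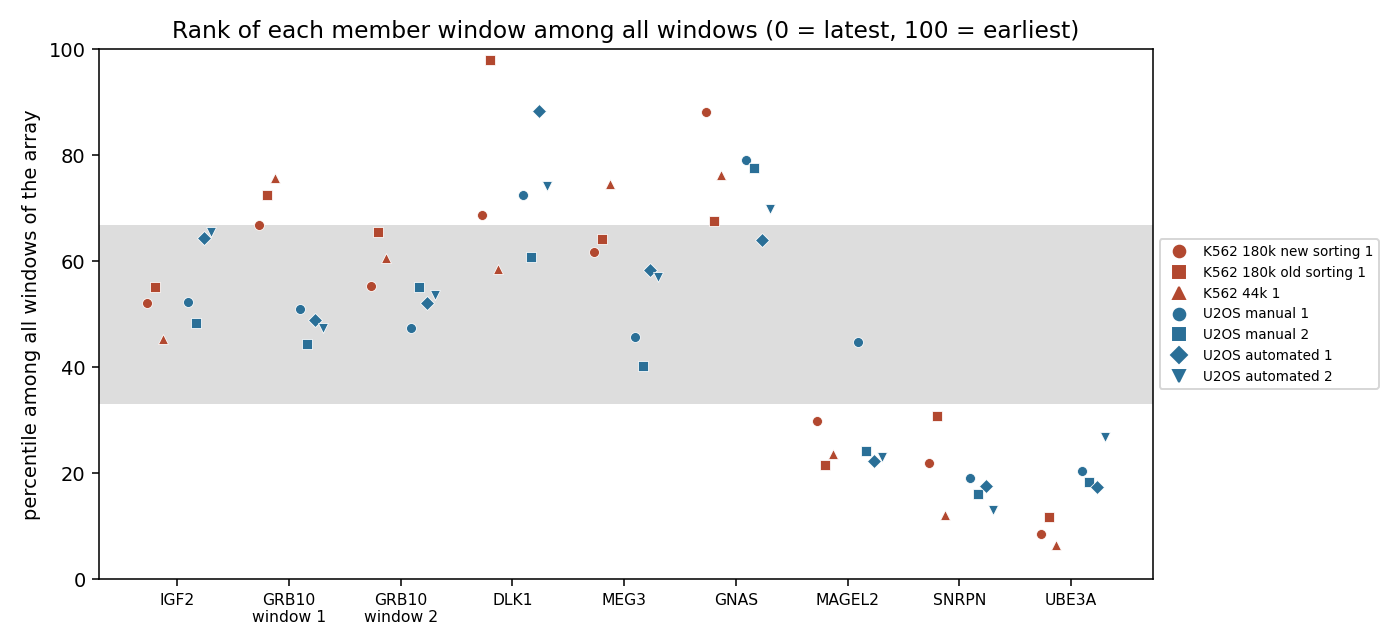
Percentile of each member window among all windows of its array (y axis, 100 is the earliest) for the 3 K562 (red) and 4 U2OS (blue) arrays; the grey band runs from 33.3 to 66.7. All 7 points of IGF2 and of GRB10 window 2 lie in the band, and those of SNRPN and UBE3A lie below it.

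IGF2 codes for a fetal growth factor that is expressed from the paternal copy in most tissues. Its window, chr11:2000001-2250000, read 0.35 with new sorting, 0.37 with old sorting and -0.17 on the array labelled 44k in K562. The manual U2OS arrays gave 0.22 and 0.08, and both automated ones 0.84. The lines overlapped, and within U2OS the automated arrays stood apart from the manual ones. On the early-over-late scale the K562 mean was 0.18 ± 0.31 (SD, n = 3) and the U2OS mean 0.49 ± 0.40 (SD, n = 4), a difference of -0.31 with an SE of 0.27 (limma adjusted p = 0.434). It was -0.13 without the array labelled 44k (limma adjusted p = 0.791).

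The IGF2 window lay in an early stretch and was later than the mean of its flanks. Its left and right flanks, the probes within 1 Mb of either edge, averaged 0.86 and 0.76 in U2OS and 0.61 and 0.83 in K562. The window was later than the mean of its flanks on all 7 arrays, by -0.09 to -0.64 in U2OS and by -0.39 to -0.68 in K562. The K562 difference was -0.54 (SE 0.15, limma adjusted p = 0.00632), and -0.46 without the array labelled 44k (limma adjusted p = 0.0367). The U2OS difference was -0.32 (SE 0.13, limma adjusted p = 0.0480), and leaving out any 1 U2OS array ended that call (limma adjusted p from 0.0564 to 0.242). So did normexp background correction (limma adjusted p = 0.0945) and flanks of 500 kb (0.222) or 2 Mb (0.101). The low stretch was not particular to the IGF2 window. The next window, chr11:2250001-2500000, averaged 0.40 in U2OS and 0.36 in K562. It was also called later than its own flanks, by -0.42 in U2OS (limma adjusted p = 0.0259) and by -0.42 in K562 (limma adjusted p = 0.0424). The right flank of IGF2 holds that window, and its left flank holds the IGF2 window.

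The 3 probes of IGF2 itself disagreed. The other 2 are printed because they differ from each other in both lines, and were picked after their values were seen.
IGF2 chr11:2153898-2153957: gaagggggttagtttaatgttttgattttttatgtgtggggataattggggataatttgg
IGF2 chr11:2167851-2167909: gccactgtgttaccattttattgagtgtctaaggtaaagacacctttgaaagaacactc
The first of these 2 read between -1.18 and -0.42 on all 7 arrays. The second had a K562 mean of 1.27 and a U2OS mean of 1.04 ± 1.31 (SD, n = 4), with a value below 0 on the array labelled 44k and on the second manual array. Averaged over these 3 probes, K562 read 0.89 with new sorting, 0.85 with old sorting and -0.27 on the array labelled 44k. The manual U2OS arrays gave 0.37 and -0.36, the automated ones 0.20 and 0.88. The lines overlapped. K562 had the higher mean, 0.49 against 0.27, while its window mean was the lower one. The difference over the gene's own probes was not tested. The spread among probes in the IGF2 window lay at the 96.9 percentile of all windows. SNRPN followed at 96.2 and DLK1 at 81.8, while UBE3A lay at 9.90, so the window mean stands for unlike probes at IGF2 and for like ones at UBE3A.

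GRB10 codes for an adaptor that binds insulin and IGF1 receptors and restrains growth, with the parental copy in use depending on tissue and promoter. It had 17 probes in 2 windows. Window 1, chr7:50500001-50750000, read 1.07 with new sorting, 0.96 with old sorting and 0.84 on the array labelled 44k in K562. The manual U2OS arrays gave 0.16 and -0.14, the automated ones -0.00 and -0.14. Every K562 array was above every U2OS array. The means were 0.96 ± 0.12 (SD, n = 3) and -0.03 ± 0.14 (SD, n = 4), and K562 was earlier by 0.99 (SE 0.20, limma adjusted p = 0.00408).

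This was the only one of the 9 member windows called between the lines, where 31.6% of all windows were called, 14.4% as earlier and 17.2% as later in K562. Over all windows the median difference, K562 minus U2OS, was -0.14. Without the array labelled 44k the difference at GRB10 window 1 was 1.05 (limma adjusted p = 0.00667). It was 0.58 with normexp background correction (limma adjusted p = 0.0571) and 0.80 after loess within arrays (limma adjusted p = 0.0947), which ended the call. Lines did not overlap in 2 of the 9 windows, GRB10 window 1 and MEG3, against 39.0% of all windows.

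GRB10 window 2, chr7:50750001-51000000, read 0.58, 0.76 and 0.41 on the new sorting, old sorting and 44k arrays of K562. In U2OS the manual values were -0.06 and 0.43 and the automated values 0.20 and 0.24. The lines overlapped, and the difference of 0.38 (SE 0.21) was not called (limma adjusted p = 0.210), nor was 0.47 without the array labelled 44k (limma adjusted p = 0.155). With 500-kb windows, in which both GRB10 windows merge, it was 0.71 and called (limma adjusted p = 0.0132). Over the gene's own probes, K562 had the higher mean at 16 of 17. On the larger design, which holds all 17, their mean was 0.79 ± 0.15 (SD, n = 2) for K562, against 0.06 ± 0.23 (SD, n = 4) for U2OS.

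The earliest window around GRB10 was not the same in the lines. In U2OS window 2 was the earliest of the measured windows around the gene, at 0.20 ± 0.20 (SD, n = 4). In K562 the earliest was the window 0.25 Mb before window 1, at 1.37 ± 0.19 (SD, n = 3), which read -0.52 ± 0.27 (SD, n = 4) in U2OS. At 0.5 Mb before window 1 K562 was earlier by 2.02 (SE 0.26, limma adjusted p = 0.000316), and at 0.75 Mb after it K562 was later, by -1.72 (SE 0.30, limma adjusted p = 0.00180). The GRB10 windows thus lay between a stretch that was earlier and a stretch that was later in K562.

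**Figure D3:**
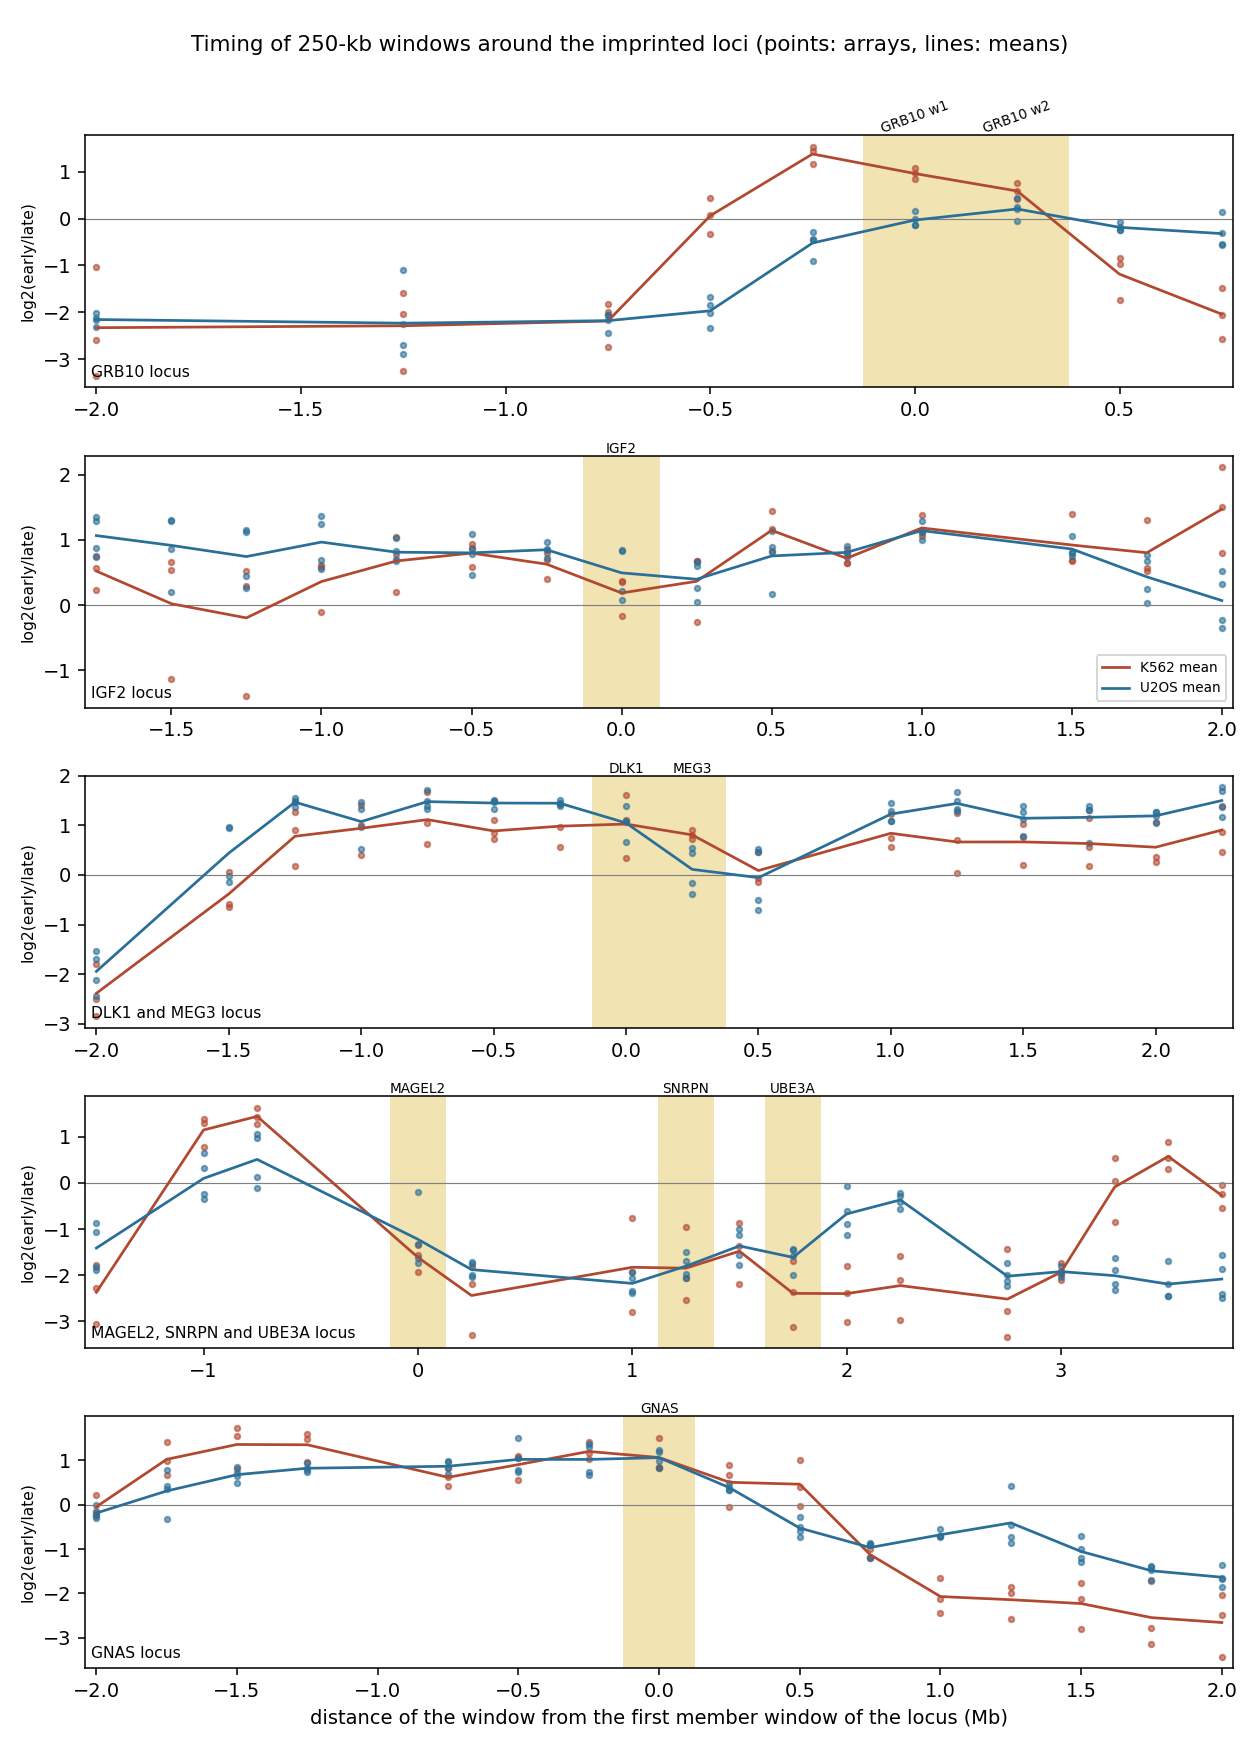
Mean log2(early/late) of 250-kb windows (y axis) against their distance in Mb from the first member window of each locus (x axis), with arrays as points and line means as curves (K562 red, U2OS blue); shaded windows hold the members, and curves run straight across windows with too few probes. At GRB10 the K562 curve peaks at 1.37 before the gene, at MEG3 the U2OS curve falls to 0.11, and from MAGEL2 to UBE3A both curves stay below -1.

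Against the mean of its flanks, GRB10 window 1 was earlier by 0.92 in U2OS (SE 0.14, limma adjusted p = 8.20e-05) and by 1.74 in K562 (SE 0.16, limma adjusted p = 1.17e-06). Window 2 was earlier by 1.18 in U2OS (SE 0.14, limma adjusted p = 1.45e-05) and by 1.46 in K562 (SE 0.17, limma adjusted p = 5.38e-06). Both were earlier than the mean of their flanks on 4 of 4 U2OS arrays and 3 of 3 K562 arrays. Without the array labelled 44k the K562 differences from that mean were 1.87 and 1.68. The left and right flanks of window 1 averaged -1.71 and -0.19 in U2OS and -0.65 and -0.91 in K562. On the second manual array window 1 (-0.14) was later than its right flank (0.02). Those of window 2 averaged -1.22 and -0.72 in U2OS and -0.07 and -1.68 in K562. The right flank of window 1 holds window 2, and the left flank of window 2 holds window 1. The excess of window 1 was larger in K562 by 0.82 (SE 0.21, limma adjusted p = 0.00825), and by 0.95 without the array labelled 44k (limma adjusted p = 0.00666). With flanks of 500 kb this difference between the lines was 0.18 (limma adjusted p = 0.534), which ended the call.

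Among the 9 member windows 6 were called against the mean of their flanks in U2OS, 3 earlier and 3 later. Of all windows 54.5% were called, 30.3% earlier and 24.2% later. In K562 6 of 9 were called as well, 3 earlier and 3 later, against 59.6% of all windows, 32.7% earlier and 26.9% later. The earlier ones were both GRB10 windows and GNAS in each line. The later ones were IGF2 and UBE3A in each line, with MEG3 in U2OS and MAGEL2 in K562. The line difference of this measure was called in 3 of 9, GRB10 window 1, MEG3 and MAGEL2, against 37.0% of all windows.

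**Figure D4:**
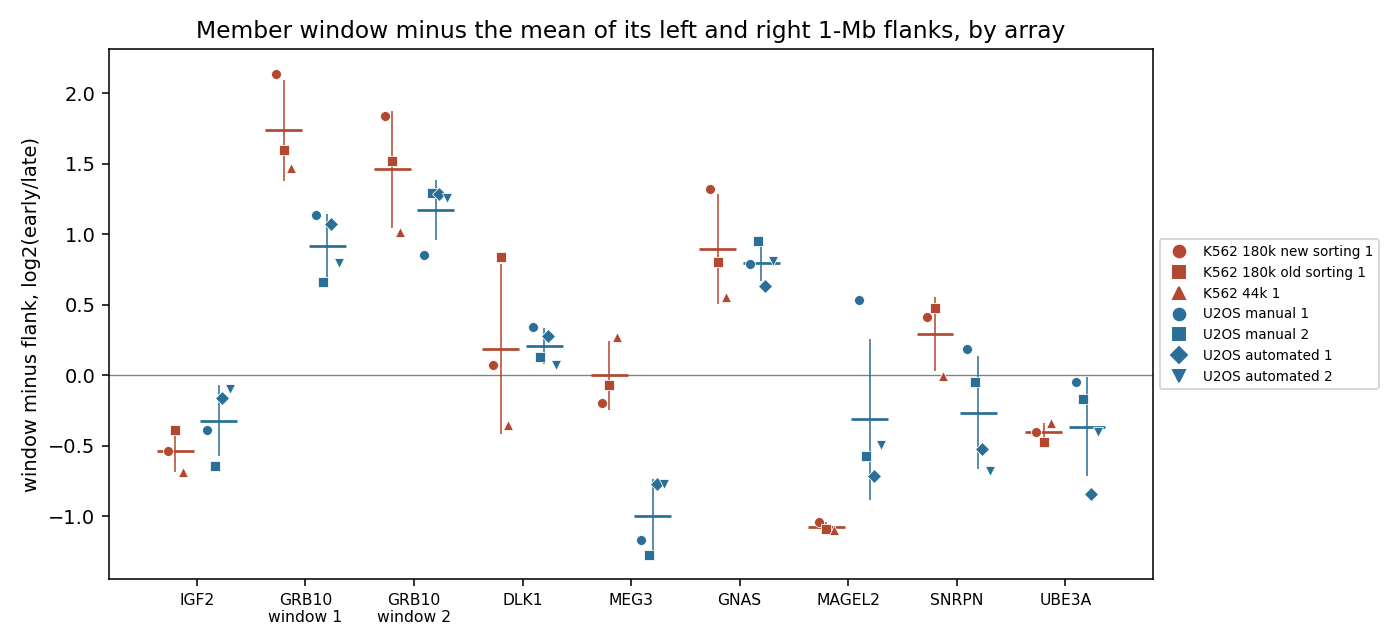
Difference between each member window and the mean of its left and right flanks, in log2(early/late) (y axis), for every array (points) with line mean (bar) and SD (vertical line), K562 in red and U2OS in blue. Both GRB10 windows and GNAS are above 0 and IGF2 is below 0 on all 7 arrays, and at MEG3 the 4 U2OS arrays lie from -1.27 to -0.77, all below the K562 arrays.

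DLK1 and MEG3 share an imprinted cluster on chromosome 14. DLK1, a membrane protein of the Notch ligand type, is expressed from the paternal copy, and MEG3, a long non-coding RNA, from the maternal copy. The window of DLK1, chr14:101000001-101250000, read 1.11, 1.62 and 0.35 on the new sorting, old sorting and 44k arrays of K562. Manual U2OS gave 1.06 and 0.66, and automated U2OS 1.39 and 1.09. The lines overlapped, with a difference of -0.02 (SE 0.32, limma adjusted p = 0.965), or 0.32 without the array labelled 44k (limma adjusted p = 0.445). On that array all 7 spots of the window had a substituted late signal.

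The MEG3 window, chr14:101250001-101500000, read 0.90, 0.72 and 0.80 on the new sorting, old sorting and 44k arrays of K562. U2OS read -0.15 and -0.39 after manual and 0.55 and 0.44 after automated handling. Every K562 array was above every U2OS array, and the U2OS arrays split by handling. The means were 0.81 ± 0.09 (SD, n = 3) and 0.11 ± 0.46 (SD, n = 4). The difference of 0.70 (SE 0.27) was not called (limma adjusted p = 0.0780), and it was called when manual and automated U2OS were fitted as separate groups (limma adjusted p = 0.0201). It was 0.70 without the array labelled 44k (limma adjusted p = 0.149).

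In U2OS the timing fell from DLK1 to MEG3 within 1 window and stayed low in the next. The windows before DLK1 averaged 1.45 at 0.25 and at 0.5 Mb. MEG3 averaged 0.11 and the window after it -0.05 ± 0.63 (SD, n = 4), and 1 Mb after DLK1 the mean was 1.23 ± 0.17 (SD, n = 4). In K562 the window after MEG3, at 0.09 ± 0.33 (SD, n = 3), was the low one. MEG3 was later than its flanks by -1.0 in U2OS (SE 0.14, limma adjusted p = 3.15e-05), on 4 of 4 arrays. In K562 it was 0.00 (SE 0.16, limma adjusted p = 0.992), or -0.13 without the array labelled 44k (limma adjusted p = 0.536).

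This measure at MEG3 differed between the lines by 1.0 (SE 0.21, limma adjusted p = 0.00183), and by 0.86 without the array labelled 44k (limma adjusted p = 0.00822). DLK1 differed from its flanks by 0.21 in U2OS (limma adjusted p = 0.301) and by 0.19 in K562 (limma adjusted p = 0.412), neither called, nor was the K562 value of 0.46 without the array labelled 44k (limma adjusted p = 0.0581). With 500-kb windows, in which DLK1 and MEG3 share a window, the U2OS value was -0.71. The right flank of DLK1 holds the MEG3 window and the left flank of MEG3 holds the DLK1 window, so these 2 measures share probes. DLK1 lay between its left and right flank on 4 of 4 U2OS arrays, where the left averaged 1.38 and the right 0.31, and on 1 of 3 K562 arrays.

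Each of the 7 probes of MEG3 had the higher mean in K562, over the arrays that hold it. On the larger design, which holds all 7, their mean was 1.13 ± 0.07 (SD, n = 2) in K562 against 0.30 ± 0.37 (SD, n = 4) in U2OS. All 3 DLK1 probes were above 0 in both lines, with a K562 mean of 1.71 ± 0.72 (SD, n = 3) and a U2OS mean of 1.41 ± 0.09 (SD, n = 4). RTL1, a further imprinted gene of the cluster, has its probe in the MEG3 window and adds no separate value.

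GNAS codes for the stimulatory G protein alpha subunit and belongs to a locus with paternal, maternal and biallelic transcripts. Its window, chr20:57250001-57500000, read 1.51, 0.82 and 0.85 on the new sorting, old sorting and 44k arrays of K562. For U2OS the manual arrays gave 1.24 and 1.19, the automated ones 0.82 and 0.99. The lines overlapped fully, at 1.06 ± 0.39 (SD, n = 3) and 1.06 ± 0.19 (SD, n = 4), and the difference was 0.00 with an SE of 0.24 (limma adjusted p = 0.993), or 0.11 without the array labelled 44k (limma adjusted p = 0.807).

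GNAS stood near the right end of an early stretch in both lines. Its left flank averaged 0.97 in U2OS and 0.92 in K562, and its right flank -0.45 and -0.59. The window exceeded the mean of its flanks by 0.80 in U2OS (SE 0.14, limma adjusted p = 0.000219) and by 0.90 in K562 (SE 0.16, limma adjusted p = 0.000222). The window was above its right flank on all 7 arrays and close to its left flank. With flanks of 500 kb the K562 excess was 0.30 and no longer called (limma adjusted p = 0.0812), and without the array labelled 44k it was 1.06 (limma adjusted p = 0.000244). At 0.25 Mb after the GNAS window the means were still above 0, at 0.38 ± 0.07 (SD, n = 4) in U2OS and 0.50 ± 0.49 (SD, n = 3) in K562. At 0.5 Mb after the GNAS window, U2OS had turned to -0.53 ± 0.18 (SD, n = 4) while K562 read 0.46 ± 0.51 (SD, n = 3), a difference of 0.99 (limma adjusted p = 0.0189). At 1 Mb the order was turned, with K562 later by -1.39 (limma adjusted p = 0.00144).

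MAGEL2, SNRPN and UBE3A lie in the chromosome 15 region of Prader-Willi and Angelman syndromes. MAGEL2 codes for a protein that assists ubiquitin ligases and is expressed from the paternal copy. Its window, chr15:23750001-24000000, read -1.94, -1.34 and -1.55 on the new sorting, old sorting and 44k arrays of K562. The U2OS values were -0.21 and -1.33 with manual and -1.72 and -1.62 with automated handling. The first manual array was the highest of the 7, and the lines overlapped (difference -0.39, SE 0.36, limma adjusted p = 0.457). Without the array labelled 44k the difference was -0.42 (limma adjusted p = 0.552). The gene itself had 1 probe, printed above, and it read between -2.01 and 0.63.

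MAGEL2 lay between an earlier left and a later right flank. The left flank averaged 1.1 ± 0.20 (SD, n = 3) in K562. In U2OS it averaged 0.27 ± 0.47 (SD, n = 4) and split by handling, with 0.76 and 0.57 for manual but -0.05 and -0.21 for automated. Its right flank was late, at -2.09 ± 0.11 (SD, n = 4) in U2OS and -2.18 ± 0.85 (SD, n = 3) in K562. The window was between its flanks on 4 of 4 U2OS and 3 of 3 K562 arrays. MAGEL2 was the only member window for which this held on every array of both lines. Of the 9 member windows, 2 lay between their flanks on every U2OS array and 1 on every K562 array, against 19.9% and 15.3% of all windows.

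Against the mean of its flanks MAGEL2 was later by -1.07 in K562 (SE 0.20, limma adjusted p = 0.000355), or -1.06 without the array labelled 44k (limma adjusted p = 0.00383). With flanks of 500 kb it was -0.15 and not called (limma adjusted p = 0.679). In U2OS the difference was -0.31 (SE 0.17, limma adjusted p = 0.147), and -0.59 without the first manual array (limma adjusted p = 0.00363). The line difference of -0.76 (SE 0.26, limma adjusted p = 0.0361) was lost without the first manual array, at -0.48 (limma adjusted p = 0.0780). Leaving out any 1 of the 3 K562 arrays ended the call too, with differences from -0.75 to -0.78 (limma adjusted p from 0.0679 to 0.0813).

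SNRPN codes for a spliceosomal protein of the nervous system, is expressed from the paternal copy, and has the imprinting control region of the cluster at its promoter. Its window, chr15:25000001-25250000, read -2.53, -0.95 and -2.06 on the new sorting, old sorting and 44k arrays of K562. On the old sorting array 4 of the 17 spots of the window had a substituted early signal. Manual U2OS arrays gave -1.50 and -1.69, automated ones -1.97 and -2.05. K562 spanned all U2OS values, and the difference was -0.04 (SE 0.35, limma adjusted p = 0.938), or 0.06 without the array labelled 44k (limma adjusted p = 0.939). Its ranks were 12.1 to 30.7 in K562 and 13.1 to 19 in U2OS, late on all 7 arrays.

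The left and right flanks of SNRPN averaged -2.09 and -0.99 in U2OS and -2.18 and -2.10 in K562. The window lay between them on 3 of 4 U2OS arrays. Its difference from the mean of its flanks was -0.26 in U2OS (SE 0.15, limma adjusted p = 0.164) and 0.30 in K562 (SE 0.18, limma adjusted p = 0.168), neither called. Without the array labelled 44k the K562 value was 0.44 (limma adjusted p = 0.0860). The K562 value depended on the extent compared, at -0.54 with flanks of 2 Mb (limma adjusted p = 0.0191) and 0.59 with 500-kb windows (limma adjusted p = 0.000966), both called. The line difference of this measure became a call without the first manual array (0.71, limma adjusted p = 0.0364) and without the array labelled 44k (0.71, limma adjusted p = 0.0469), and with 500-kb windows (0.67, limma adjusted p = 0.00561). Within the gene the probe means ran from -2.95 to -0.10 in U2OS and from -2.84 to 0.36 in K562. On the larger design, which holds all 12 probes of the gene, they averaged -1.60 ± 0.26 (SD, n = 4) in U2OS and -1.64 ± 0.81 (SD, n = 2) in K562. The right flank of SNRPN holds the UBE3A window.

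UBE3A codes for an E3 ubiquitin ligase that is expressed from the maternal copy in neurons and from both copies in most other cells. Its window, chr15:25500001-25750000, read -3.12, -1.70 and -2.36 on the new sorting, old sorting and 44k arrays of K562. U2OS gave -1.45 and -1.58 on its manual and -1.99 and -1.43 on its automated arrays. The lines overlapped at the old sorting array alone, where 6 of the 16 spots of the window had a substituted early signal. The difference of -0.78 (SE 0.33) was not called (limma adjusted p = 0.101), and was -1.12 without the old sorting array (limma adjusted p = 0.0101). It was also called with 500-kb windows, at -1.25 (limma adjusted p = 0.0178), and with arrays scaled to the same spread (limma adjusted p = 0.0432). Leaving out the array labelled 44k gave -0.80 (limma adjusted p = 0.191). Without the new sorting array the difference was only -0.42 and not called. In rank it lay at 6.4 to 11.8 in K562 and at 17.4 to 26.8 in U2OS. All 9 UBE3A probes had the lower mean in K562, over the arrays that hold them, and no probe mean was above 0 in either line. The array labelled 44k holds 4 of them. On average the 9 probes read -3.32 with new sorting and -1.63 with old sorting. The old sorting value lay within the U2OS arrays (-2.21 to -1.56).

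The left and right flanks of UBE3A averaged -1.68 and -0.82 in U2OS and -1.69 and -2.29 in K562. The window lay between them on 3 of 4 U2OS arrays. Against the mean of its flanks UBE3A was later by -0.36 in U2OS (SE 0.14, limma adjusted p = 0.0388) and by -0.40 in K562 (SE 0.16, limma adjusted p = 0.0428). The U2OS call ended without the first automated array, at -0.20 (limma adjusted p = 0.296), and without the second, at -0.35 (limma adjusted p = 0.117). With flanks of 2 Mb it was -0.04, and with 500-kb windows the sign turned (0.31). The K562 call ended without any 1 of the K562 arrays (limma adjusted p from 0.0741 to 0.118), the value without the array labelled 44k being -0.43. It also ended without the second manual array (limma adjusted p = 0.0518) or the second automated array (limma adjusted p = 0.0625), at the same K562 difference, since the arrays share an estimate of the spread. The line difference of this measure was -0.04 (limma adjusted p = 0.907), but was called with 500-kb windows (-0.80, limma adjusted p = 0.00339) and with flanks of 2 Mb (-0.91, limma adjusted p = 0.00611). Beyond UBE3A the lines parted. At 0.25 Mb after its window, which is 2 Mb after MAGEL2, U2OS read -0.67 ± 0.46 (SD, n = 4) and K562 -2.40 ± 0.61 (SD, n = 3), and K562 was later by -1.73 (SE 0.34, limma adjusted p = 0.00373). At 3.5 Mb after MAGEL2 the order was turned, with K562 earlier by 2.77 (SE 0.26, limma adjusted p = 6.24e-05).

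Between automated and manual U2OS arrays 2 of the 9 member windows were called, IGF2 and MEG3, against 21.3% of all windows. Both were earlier on the automated arrays, a direction taken by 5.87% of all windows, against 15.4% later. IGF2 averaged 0.84 with automated and 0.15 ± 0.10 (SD, n = 2) with manual handling, a difference of 0.69 (SE 0.16, limma adjusted p = 0.0174). MEG3 averaged 0.50 ± 0.08 (SD, n = 2) and -0.27 ± 0.16 (SD, n = 2), a difference of 0.77 (SE 0.17, limma adjusted p = 0.0133).

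Leaving out either automated array ended both calls (limma adjusted p from 0.0939 to 0.190). MAGEL2 differed by -0.91 and was not called (limma adjusted p = 0.0523). Without the second manual array it was called at -1.47 (limma adjusted p = 0.00787), as was SNRPN at -0.52 (limma adjusted p = 0.0442). DLK1 was called without the first manual array, at 0.58 (limma adjusted p = 0.0489). With normexp background correction, which called 6519 windows, DLK1, MAGEL2, SNRPN and UBE3A were called in addition. With 2 arrays a side, the smallest two-sided p of an exact permutation test is 0.333. Both manual arrays were on the same slide and each automated array had its own, so handling and slide cannot be told apart. No slide held both cell lines, so line and slide cannot be told apart either. Late signals were substituted at 5.95 and 13.0% of the member-window spots on the manual arrays and at 1.62 and 0.54% on the automated arrays, and the part of this in the differences was not tested.

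Other genes were read from a list of 52 taken as imprinted, of which 46 had a probe, in 53 windows that include 3 of the member windows. Whether each is imprinted in these cell lines was not measured. Between the lines 3 of these windows were called earlier and 12 later in K562, which is 5.66 and 22.6% of them, against 14.4 and 17.2% of all windows. The 12 later ones rest on 8 genes, with 5 windows of NTM and 2 of ATP10A among them. The median difference was -0.41 over the 53 windows, -0.30 over the 46 genes and -0.14 over all windows. The largest called differences toward earlier in K562 were at IGF2R, a receptor that binds IGF2 (1.26), at COMMD1 (1.26) and at DDC, which shares GRB10 window 1. Toward later in K562 they were at NTM (-3.34), at ATP10A, which follows UBE3A (-1.86), and at MAGI2 (-1.67). Against their flanks 13 windows were called earlier and 13 later in U2OS, where 30.3 and 24.2% of all windows were. In K562 13 were called earlier and 19 later, against 32.7 and 26.9%. Intermediate on every array of a line were 14 of the 53 in U2OS and 7 in K562, against 19.5 and 16.8% of all windows.

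**Figure D5:**
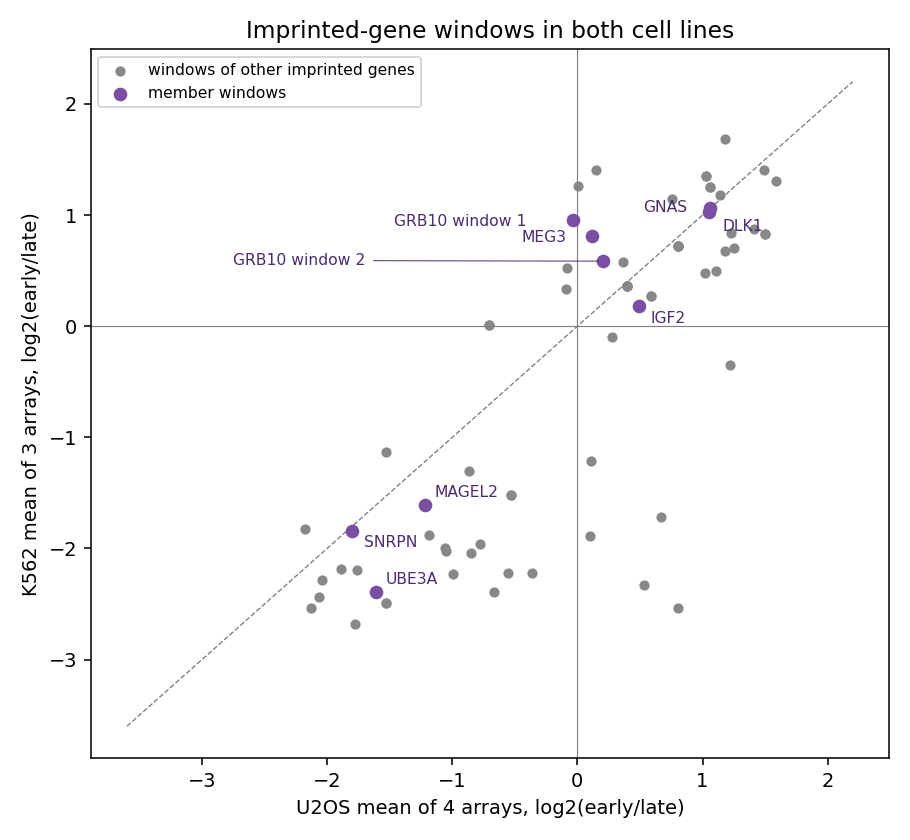
Mean log2(early/late) over the 3 K562 arrays (y axis) against the mean over the 4 U2OS arrays (x axis) for the 9 member windows (purple, named) and the windows of the other imprinted genes (grey); the dashed line marks equal values. GRB10 window 1 and MEG3 lie above the line, UBE3A below it, and GNAS and DLK1 close to it.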

How the data were processed

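Per the file headers, the deposited spot intensity values were written by Agilent Feature Extraction 11.5.1.1, and the processed signals used here were background-subtracted and dye-normalized by that software on build hg19. The submitters' processing notes name version 9.1. Control spots and outlier flags were left out, and saturated spots were kept. Log2 of Cy3 over Cy5 was centred on the median probe of chromosomes 1 to 22 and X, averaged per probe and then in 250-kb windows with at least 3 probes on every array. IGF2 probes bear that name on the array labelled 44k and were matched to the larger design by probe. Flanks were the probes within 1 Mb of each window edge, at least 3 per side. Windows were tested with limma 3.58.1 (lmFit, eBayes) in R 4.3.3 on all windows, Benjamini-Hochberg adjusted p under 0.05. Cell line means used 3 and 4 arrays, and handling used the 4 U2OS arrays. The named genes were all members with a probe, the control loci BMP1 and DPPA2, and up to 3 other imprinted genes per direction. Members and lists were chosen with earlier results of these data known. On simulated shifts of 1 log2 unit the line test (8913 windows) recovered 28% and the U2OS flank test (8822 windows) 94%. Alternatives changed the background correction, scaling, filters, window, flank, call rule and arrays.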

Additional observations from a re-analysis of the deposited data

Results flagged for a closer look

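In 3 member windows the difference between window and flanks was not the same in the cell lines by the test of that difference (limma, K562 minus U2OS). That is 3 of 9, where 37.0% of all windows were called. At GRB10 window 1 the lines differed by 0.82 (adjusted p = 0.00825), with the window earlier than the mean of its flanks on all 7 arrays. At MEG3 they differed by 1.0 (adjusted p = 0.00183), with the window later than its flanks on 4 of 4 U2OS arrays. At MAGEL2 they differed by -0.76 (adjusted p = 0.0361). There the window was later than the mean of its flanks on 3 of 3 K562 and 3 of 4 U2OS arrays. It lay between an earlier left and a later right flank on all 7 arrays. Requiring a difference of at least 1 ended all 3 calls, since each value lies below it. Setting that aside, and arrays scaled to the same spread, the MEG3 call held under each of 12 alternatives, the GRB10 window 1 call under 11 of 12 and the MAGEL2 call under 3 of 11. Among the 4 U2OS arrays no member window had an array far from the others by Dixon's test, over 9 tests, where chance gives about 1 in 20. With only 4 arrays, which can split by handling, that test can easily miss an array that stands apart. At MAGEL2 it did not flag the first manual array (-0.21), where the other U2OS arrays read -1.33 or below. No conclusion is drawn from it.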

How the results depend on the processing

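Calls between the lines (2817 of 8913 windows) became 1873 with normexp, 1557 of 5510 with 500-kb windows, 33 of 209 without dim probes, and 2145 to 3201 without 1 array. U2OS window against flank (4829 of 8865) became 3179 of 5440 with 500-kb windows, 116 of 206 without dim probes, 1313 with a difference of at least 1, and 4133 to 5126 without 1 array. The same in K562 (5285 of 8865) became 3408 of 5440, 127 of 206, 2301, and 4525 to 5218. Automated against manual (1900) became 6519 with normexp, 112 of 209 without dim probes, 355 with a difference of at least 1, and 300 to 2758 without 1 array, the lone array left in a group taken to vary like the others; without the first or the second automated array it was 300 or 467. Member windows intermediate in U2OS (4) became 0 without dim probes and 2 with 500-kb windows, with 4 to 4 without 1 array. In K562 (2) they became 0, 1, and 2 to 3. Fewer windows are tested with 500-kb windows or without dim probes, which lowers those counts.

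The numbers 1 and 2 of manual and automated arrays did not pair them (correlation of deviations -0.04), and with the number as a replicate block 2309 windows were called; MAGEL2 was then called at -0.91 (adjusted p = 0.000209). Of automated against manual calls 27.5% were earlier on automated arrays, 53.4% after loess and 44.2% with normexp. The median window moved from -0.16 to 0.03 under loess, and between the lines from -0.14 to -0.24.

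Signs turned for automated minus manual at IGF2 without dim probes (-0.15), for the U2OS flank difference with 500-kb windows at DLK1 (-0.71, where it shares the window with MEG3) and UBE3A (0.31), for the K562 flank difference at SNRPN with flanks of 2 Mb (-0.54), and for the line difference of the flank measure at DLK1 with 500-kb windows (0.76) and at MAGEL2 with flanks of 500 kb (0.10); the cause was not tested. Of 600 alternative values of member tests 480 kept sign and call, 46 lost the call, 26 gained it, and 42 changed sign while called in neither. Slide as a random block was not run, since 1 shared slide among 7 arrays gives limma no correlation to estimate; averaging the 2 arrays of that slide, chosen after seeing the data, was run in its place. Dim signal limits all values, most on the array labelled 44k.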
